A study of Mus musculus with 17 samples.

Results

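A set of 9 genes that carry drugs and organic ions across the hepatocyte membrane were followed across the livers and tumors of mice lacking NgBR in the liver. They were chosen by symbol: the uptake carriers Slco1a4, Slco1b2, Slco2b1 and Slc22a7, and the efflux pumps Abcc2, Abcc3, Abcc4, Abcb1a and Abcg2. All 9 were listed in both deposited gene tables, among 19151 genes in the high-fat diet (HFD) table and 24233 in the Western diet (WD) table, and all 9 passed the filter on low counts in every comparison.

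RNA-seq was performed on 17 mouse samples after 16 weeks of diet. From mice on HFD there were 4 WT livers and 4 livers of liver-specific NgBR knockout mice (N-LKO). From mice on WD, a high-fat diet with added cholesterol, there were 3 WT livers, 3 N-LKO livers and 3 tumors of N-LKO mice. The mice were male, on a C57BL6 background, and were kept on chow before the diets began. N-LKO mice carry loxP-flanked NgBR alleles (gene symbol Nus1) and an albumin-Cre transgene, which is active in hepatocytes, so the other cells of the liver keep the gene. The sources used here do not state whether the WT mice carried loxP alleles, nor whether a tumor and an N-LKO liver came from the same animal. NgBR is a subunit of the enzyme that makes dolichol, the lipid on which sugars for N-glycosylation are assembled.

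Hepatocytes clear drugs, bile salts, bilirubin conjugates and hormones from the blood in steps. Organic anion transporting polypeptides (Slco genes) and organic anion transporters (Slc22 genes) take up compounds at the sinusoidal side, which faces the blood. ATP-driven pumps (Abc genes) expel them into bile at the canalicular side or back into blood at the sinusoidal side. Expression of these carriers is set in liver by nuclear receptors and hepatocyte factors such as CAR (Nr1i3), PXR (Nr1i2), FXR (Nr1h4) and HNF4 (Hnf4a), and several are under the stress-responsive factor NRF2 (Nfe2l2).

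Libraries held 9096109 to 12215764 counts in the HFD table and 15494718 to 20200578 in the WD table. Nus1 checked the labels: it stood at 88.2 ± 5.90 CPM (counts scaled to the library's total; mean ± SD, n = 4) in WT and 35.1 ± 3.99 (n = 4) in N-LKO liver on HFD, and on WD at 94.5 ± 5.57 in WT liver, 46.7 ± 4.75 in N-LKO liver and 35.8 ± 7.59 in tumor (n = 3 each), with no overlap between WT libraries and the others of the same diet. Hepatocyte markers were abundant in every library, with the 8 listed genes summing to at least 34293 CPM. The tumors differed among themselves more than the livers did. Over 17829 genes, the log2 CPM of tumor 1 correlated better with the N-LKO livers (mean r = 0.973) than with the other tumors (mean r = 0.952), while tumors 2 and 3 correlated less with the N-LKO livers (0.931 and 0.948) than with the other tumors (0.952 and 0.958). The replicates are labelled as biological, and the p-values set a difference against the spread between these samples. On WD that spread is taken from livers and tumors together, so the uneven tumors enter the errors of the comparison between livers.

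The 250 bases before the start site are shown for 3 of the carriers: Slco2b1 and Abcc4, which differed between tumor and WT liver, and Slco1b2, which had the highest level in liver and was far lower in 2 of the 3 tumors. The sequences are from RefSeq on GRCm38.p6 and run 5′ to 3′ on the strand of the gene. For these 3 the RefSeq start coincides with the annotated start of the counted gene. Abcc4 and Slco2b1 also have RefSeq starts further inside the gene, whose windows are not shown. Which start was used in these samples was not tested. Slco1b2 is shown from chr6:141629268-141629517 on the plus strand, Abcc4 from chr14:118706220-118706469 on the minus strand and Slco2b1 from chr7:99711341-99711590 on the minus strand. Capitals mark matches on either strand to AGGTCA (a nuclear receptor site), TGACNNNGC (the core of the antioxidant response element bound by NRF2) or GCGTG (the core of the xenobiotic response element bound by AhR).
Slco1b2: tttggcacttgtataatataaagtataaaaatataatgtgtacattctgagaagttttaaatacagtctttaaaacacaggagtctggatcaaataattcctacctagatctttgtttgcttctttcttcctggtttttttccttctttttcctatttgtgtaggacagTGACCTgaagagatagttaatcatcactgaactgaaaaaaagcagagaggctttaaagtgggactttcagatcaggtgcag
Abcc4: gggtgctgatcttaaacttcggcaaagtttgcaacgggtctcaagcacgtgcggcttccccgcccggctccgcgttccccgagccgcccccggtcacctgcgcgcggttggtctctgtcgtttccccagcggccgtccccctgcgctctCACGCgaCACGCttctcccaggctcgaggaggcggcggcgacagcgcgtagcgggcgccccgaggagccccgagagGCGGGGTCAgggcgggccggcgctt
Slco2b1: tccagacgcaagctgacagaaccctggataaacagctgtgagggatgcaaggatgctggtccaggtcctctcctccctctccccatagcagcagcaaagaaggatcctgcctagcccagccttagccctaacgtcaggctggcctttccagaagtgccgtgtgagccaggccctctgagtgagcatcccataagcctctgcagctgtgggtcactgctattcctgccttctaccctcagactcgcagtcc

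The Slco1b2 window held 1 AGGTCA match, the Abcc4 window 1 TGACNNNGC and 2 GCGTG matches, and the Slco2b1 window none of the 3 motifs. No match in any of the 3 windows overlapped another. Of 32851 promoter windows of this length, 14.02% held AGGTCA, 10.2% TGACNNNGC and 28.2% GCGTG, so each motif is common and a match describes the letters only. The table held 12 entries for 7 of the 9 genes. Its Abcb1a start, at position 8567091 of chromosome 5, lies well upstream of the start of the counted gene at 8660077, and that window is not shown. Slc22a7 and Abcc3 had no entry.

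On GRCm38, Slco1b2 (ENSMUSG00000030236.10) occupies positions 141629518 to 141686646 of chromosome 6 on the plus strand and Slco1a4 (ENSMUSG00000030237.14) positions 141805440 to 141856199 of the same chromosome on the minus strand. Slco2b1 (ENSMUSG00000030737.17) lies at 99657804 to 99711340 of chromosome 7 and Slc22a7 (ENSMUSG00000067144.7) at 46432183 to 46438457 of chromosome 17, both on the minus strand. Among the pumps, Abcc2 (ENSMUSG00000025194.5) is at 43782192 to 43840740 of chromosome 19 on the plus strand, Abcc3 (ENSMUSG00000020865.16) at 94343295 to 94392997 of chromosome 11 on the minus strand, and Abcc4 (ENSMUSG00000032849.14) at 118482692 to 118706219 of chromosome 14 on the minus strand. Abcb1a (ENSMUSG00000040584.8) is at 8660077 to 8748575 of chromosome 5 and Abcg2 (ENSMUSG00000029802.13) at 58584523 to 58695676 of chromosome 6, both on the plus strand. Counts are over the exons of each gene.

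Per kilobase of exon, the 9 carriers spanned a wide range in the WT livers of both diets. In WT liver on WD, Slco1b2, an uptake carrier for statins and bilirubin conjugates, stood highest at 300.8 ± 40.4 CPM per kilobase (SD, n = 3). The bilirubin conjugate pump Abcc2 followed at 96.3 ± 0.951, the sinusoidal pump Abcc3 at 79.7 ± 13.6, Slco2b1 at 26.6 ± 4.85 and the canalicular pump Abcg2 at 15.6 ± 0.532. These 5 did not overlap with their neighbours in the order. The other 4 stood at 8.54 ± 3.67 (Slco1a4), 3.99 ± 4.91 (Slc22a7), 1.43 ± 0.861 (Abcb1a) and 1.10 ± 0.471 (Abcc4), and each overlapped with the next. WT liver on HFD held the same first 5 genes in the same order, from 317 ± 38.2 for Slco1b2 to 12.6 ± 1.24 for Abcg2 (n = 4), and there Abcc4 (0.292 ± 0.0922) and Abcb1a (0.520 ± 0.349) were again at the bottom and overlapped. In the tumors this order loosened: Slco1b2 (85.8 ± 113.6), Abcc2 (71.5 ± 21.3) and Abcc3 (63.3 ± 12.5) overlapped in sequence, and Abcb1a reached 13.4 ± 4.14 CPM per kilobase, level with Slco2b1 at 13.1 ± 4.23. The same values per library, as CPM and not scaled to length, are plotted gene by gene.

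**Figure D1:**
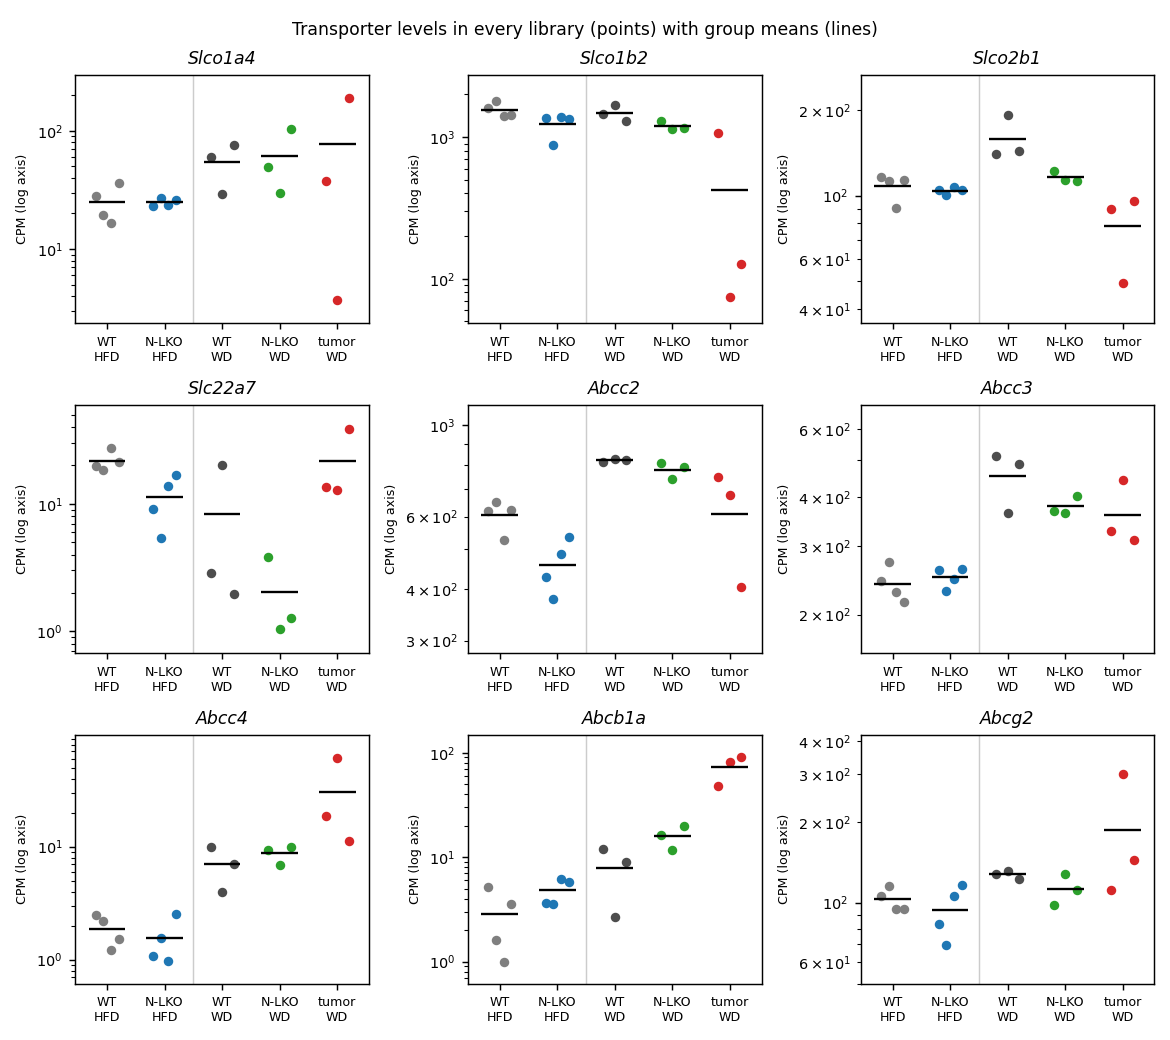
Level of each of the 9 transporters in CPM (log axis) in every library, with 1 point per library and a line at the group mean, with 4 libraries in each HFD group and 3 in each WD group. The 3 tumors sit above all 6 WD livers for Abcb1a and Abcc4 and below all 6 for Slco1b2 and Slco2b1, and are spread from 3.74 to 189 CPM for Slco1a4.

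Under HFD, these carriers were compared between N-LKO and WT liver. The paper reports liver tumors in all male N-LKO mice on either HFD or WD. On HFD it also reports more liver fat, inflammation and fibrosis in N-LKO than in WT mice. On both diets the samples labelled N-LKO liver therefore stand for diseased, tumor-bearing livers. The effect of NgBR loss apart from this disease was not tested. None of the 9 carriers passed the test (edgeR quasi-likelihood, Benjamini-Hochberg adjusted p under 0.05), against 4.84% of the 13460 genes tested, 2.56% higher and 2.29% lower. The lowest adjusted p-values belonged to 2 carriers that stood lower in N-LKO liver, Slc22a7 and Abcc2. At an unadjusted p under 0.05 there were 3 carriers, Slc22a7, Abcc2 and Slco1b2, all with negative changes, beside 22.7% of all genes. The DESeq2 Wald test called 2 of the 9, Slc22a7 and Abcc2, beside 7.42% of all genes.

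Slc22a7 encodes OAT2, a sinusoidal carrier of organic anions. Its CPM was 19.8, 18.6, 27.1 and 21.3 in the 4 WT livers and 9.11, 5.36, 13.8 and 16.96 in the 4 N-LKO livers on HFD. Every N-LKO library lay below every WT library. The log2 fold change was −0.94 (SE 0.27, adjusted p = 0.0693), and the gene was called in 3 of 13 alternative fits, with the DESeq2 Wald test at an adjusted p of 0.0139 and without N-LKO liver replicate 4 at 0.0396.

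Abcc2, the MRP2 pump that moves bilirubin and glutathione conjugates into bile, read 620, 650, 525.7 and 624 CPM in WT and 428, 378, 486 and 537 in N-LKO liver on HFD. The groups overlapped only through WT replicate 3 and N-LKO replicate 4. Its log2 fold change was −0.40 (SE 0.12, adjusted p = 0.0694), and the DESeq2 Wald test called it at an adjusted p of 0.0223.

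Slco1b2, encoding OATP1B2, was at 1606, 1812, 1398 and 1440 CPM in WT and 1368, 879, 1393 and 1342 in N-LKO liver on HFD. The groups did not overlap, although the highest N-LKO and the lowest WT library lay close together. The fitted change was −0.33 on the log2 scale (SE 0.15, adjusted p = 0.213). Slco1b2 and Slc22a7 were the 2 carriers without overlap, both lower in N-LKO, and 14.8% of all genes tested had non-overlapping groups in this comparison.

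Abcb1a, encoding the P-glycoprotein MDR1A that pumps lipophilic drugs out of cells, stood at 5.21, 1.63, 1.00 and 3.56 CPM in WT and 3.64, 3.54, 6.20 and 5.84 in N-LKO liver on HFD. The ranges overlapped, with 2 N-LKO libraries above all WT libraries (log2 fold change 0.74, SE 0.40, adjusted p = 0.298). Slco2b1, a carrier of steroid sulfates, differed little, at 90.7 to 117 CPM in WT and 101 to 107 in N-LKO (−0.06, SE 0.09). Slco1a4, a carrier of bile salts and cardiac glycosides, had log2 fold change −0.02 (SE 0.20), Abcc3 0.05 (SE 0.09), Abcc4 −0.25 (SE 0.36) and Abcg2 −0.14 (SE 0.14), all with overlapping libraries. Over the 9 the median log2 fold change was −0.14, beside −0.01 over all genes tested, and 7 of the 9 values were negative. With the length and GC offset the median was 0.01, with 4 of the 9 negative.

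**Figure D2:**
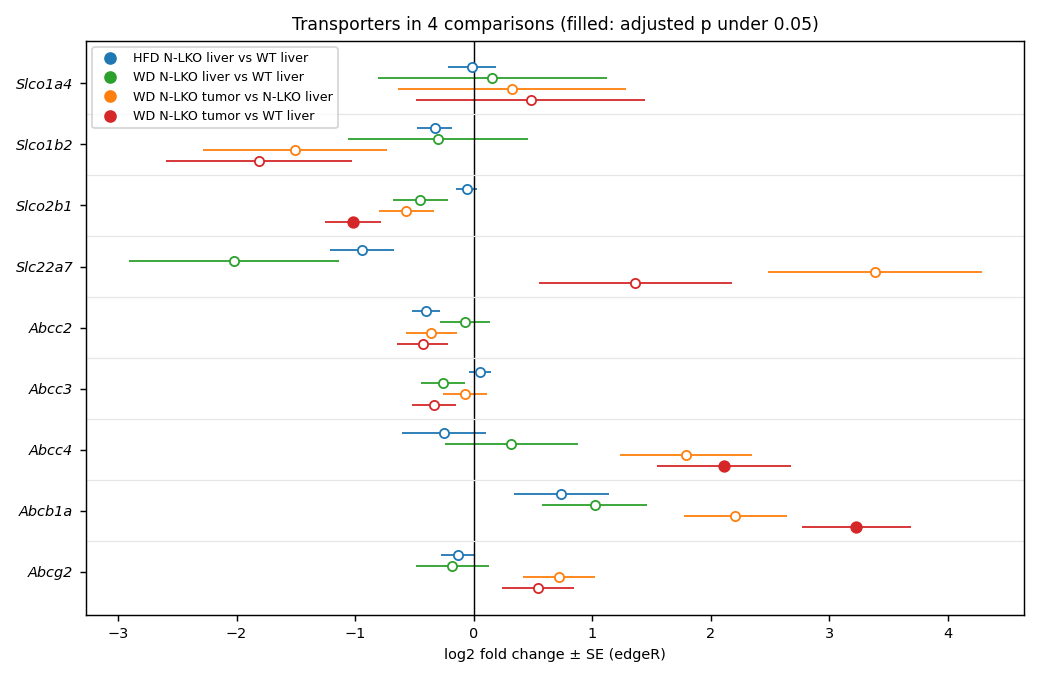
Log2 fold change (x axis) with its approximate standard error for each transporter (y axis) in 4 comparisons, each in its own colour; filled points have an adjusted p under 0.05 over all genes tested. The filled points are Abcb1a (3.23), Abcc4 (2.11) and Slco2b1 (−1.02), all in N-LKO tumor against WT liver on WD.

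Under WD the same genotypes were compared in the samples labelled as liver. No carrier passed the test, and neither did any of the 17829 genes tested, so the background was 0%. The deleted gene Nus1 was itself not called (−1.02, SE 0.16, adjusted p = 0.151), although its groups did not overlap, so the lack of calls here says little. An unadjusted p under 0.05 was reached by 2212 genes (12.4%), 2 carriers among them. The DESeq2 Wald test called 99 genes (0.555%) and 0 carriers, but gave no adjusted p for Slco1b2 and Slc22a7 in any WD comparison. Abcb1a read 11.9, 2.65 and 8.95 CPM in WT and 16.4, 11.7 and 19.7 in N-LKO liver. The ranges met only where WT replicate 1 and N-LKO replicate 2 lay side by side (log2 fold change 1.02, SE 0.44, adjusted p = 0.392).

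Slc22a7 had 2.88, 20.3 and 1.97 CPM in WT liver and 3.82, 1.04 and 1.28 in N-LKO liver on WD. WT replicate 2 alone was high, and the other 2 WT livers lay within the N-LKO range. The fitted log2 change was −2.02 (SE 0.89, adjusted p = 0.397), and without WT replicate 2 it was −0.24. Slco2b1 was at 141, 192 and 143 CPM in WT and 122, 113.5 and 113 in N-LKO liver, and Abcc2 at 813, 829.4 and 822 in WT and 810, 739 and 793 in N-LKO. These were the 2 carriers without overlap, both lower in N-LKO (−0.45 and −0.07), while 27.9% of all genes tested did not overlap.

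The other 5 carriers overlapped between WT and N-LKO liver on WD. Their log2 fold changes were 0.16 (SE 0.97) for Slco1a4, −0.30 (SE 0.76) for Slco1b2, −0.26 (SE 0.19) for Abcc3, 0.32 (SE 0.56) for Abcc4 and −0.18 (SE 0.30) for Abcg2. Slco1b2 spanned only 1304 to 1697 CPM in WT and 1138 to 1307 in N-LKO liver, and its SE includes the spread of the tumors. The median over the 9 was −0.18, beside 0.01 over all genes.

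An interaction term, fitted to the 14 livers together, compared the genotype effect of WD with that of HFD. Each diet has its own table and sequencing depth, so an effect of diet cannot be told apart from one of the table. None of the 9 passed the test, beside 1.62% of 15850 genes (0.587% with a higher and 1.03% with a lower effect under WD). With edgeR 1 carrier had an unadjusted p under 0.05, Slco2b1 (−0.37, SE 0.15, adjusted p = 0.196), where 20% of all genes did. The DESeq2 Wald test called 0 carriers and 5.82% of all genes. Next came Abcc2 (0.35, SE 0.17, adjusted p = 0.252). The value for Slc22a7, −1.04 (SE 0.89), became 0.71 without WT liver WD replicate 2. The other 6 values were 0.59 (SE 0.50) for Abcc4, 0.30 (SE 0.66) for Abcb1a, −0.30 (SE 0.17) for Abcc3, 0.19 (SE 0.53) for Slco1a4, 0.05 (SE 0.22) for Slco1b2 and −0.02 (SE 0.20) for Abcg2. Of these 6, the last 3 and Abcb1a changed sign in at least 1 alternative.

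The tumors were compared with both WD liver groups, which shows where transporter expression in the tumor departs from the liver of the same genotype and of WT. Against WT liver, Abcb1a and Abcc4 rose and Slco2b1 fell. That is 3 of 9 carriers, 2 higher and 1 lower, where 14.9% of all genes tested were called, 8.08% higher and 6.8% lower. An unadjusted p under 0.05 was reached by 4 carriers and by 32.5% of all genes, and the DESeq2 Wald test called the same 3 carriers and 20.4% of all genes. Against N-LKO liver none of the 9 passed edgeR's test, beside 0.499% of all genes. There 5 had an unadjusted p under 0.05, as did 18.3% of all genes, and the DESeq2 Wald test called 2, Abcc4 and Abcb1a, beside 5.73% of all genes. The tumor comparisons share the tumor libraries, so their values are not independent of each other.

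Abcb1a showed the clearest difference. Its CPM was 47.9, 81.8 and 90.9 in tumors 1, 2 and 3, against 16.4, 11.7 and 19.7 in N-LKO liver and 11.9, 2.65 and 8.95 in WT liver. Each tumor exceeded each of the 6 livers, the lowest tumor by more than the whole range of the livers. The log2 fold change was 3.23 (SE 0.46, adjusted p = 0.00709) against WT liver, a 9.38-fold difference, and 2.21 (SE 0.44, adjusted p = 0.0614) against N-LKO liver, a 4.62-fold difference. The call against WT held in 16 of 16 alternative fits (2.82 to 3.65), and the comparison with N-LKO liver passed in 5 of 16.

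Reads of Abcb1a can also come from Abcb1b, its close paralog and the other rodent MDR1 gene, and the estimated counts of Abcb1a were not whole numbers in 9 of 9 WD libraries. The same held for Slco1b2 and Slco2b1, and which features shared the divided reads was not tested. Abcb1b itself stood at 1.57 ± 0.251 CPM in WT liver, 2.86 ± 0.755 in N-LKO liver and 7.97 ± 3.17 in tumor (n = 3 each), and rose against WT liver (2.34, SE 0.36, adjusted p = 0.00811). With both genes summed before the test, an alternative chosen after the data had been seen, the log2 fold change was 3.12 (adjusted p = 0.00552) against WT liver and 2.12 (adjusted p = 0.0456) against N-LKO liver.

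Abcc4 encodes MRP4, which exports bile salts, prostanoids and cyclic nucleotides at the sinusoidal side. The tumors held 18.5, 61.0 and 11.2 CPM, N-LKO liver 9.35, 6.93 and 9.95, and WT liver 10.02, 4.00 and 6.98. All 3 tumors were above all 6 livers, but tumor 3 only just, and tumor 2 stood far above the others. The log2 fold change was 2.11 (SE 0.57, adjusted p = 0.0349) against WT liver and 1.79 (SE 0.55, adjusted p = 0.138) against N-LKO liver. The call against WT held in 6 of 15 alternatives: it was lost without tumor 2 (1.05, adjusted p = 0.0907) and without any single WT liver (1.83 to 2.45) or N-LKO liver (2.11), with adjusted p-values from 0.0515 to 0.128, and with a fit of only the 2 groups compared (0.0856).

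Slco2b1, encoding OATP2B1, fell against WT liver. It read 89.5, 49.5 and 96.0 CPM in the tumors, 122, 113.5 and 113 in N-LKO liver and 141, 192 and 143 in WT liver. The 3 groups did not overlap, and tumor lay lowest, N-LKO liver between and WT liver highest. The log2 fold change was −1.02 (SE 0.23, adjusted p = 0.0220) against WT liver and −0.57 (SE 0.23, adjusted p = 0.235) against N-LKO liver. Without WT replicate 2, the highest of its group, the change against WT was −0.86 with an adjusted p of 0.0806, and with a fit of only the 2 groups compared the adjusted p was 0.0632. Slco2b1 overlaps the antisense gene Gm15635, whose mean was 3.36 CPM in the WD table beside 118 for Slco2b1, and strand use in counting was not given in the sources used here.

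Slco1b2 split the tumors. It held 1069, 73.9 and 126.1 CPM in tumors 1, 2 and 3, against 1307, 1138 and 1164 in N-LKO liver and 1447, 1697 and 1304 in WT liver. Tumor 1 lay just below the lowest liver, whereas tumors 2 and 3 were at 0.0499 and 0.0851 of the WT mean. With this spread the change did not pass the test against WT liver (−1.81, SE 0.78, adjusted p = 0.140) or N-LKO liver (−1.51, SE 0.78, adjusted p = 0.335). Without tumor 1, the tumor unlike the other 2, it was −3.89 (adjusted p = 0.000114) and −3.59 (adjusted p = 0.000275). This fit leaves out the differing library, and it was the 1 call among 14 alternatives in each comparison. Over the 14 the change ran from −3.89 to −1.35 against WT liver and from −3.59 to −1.03 against N-LKO liver.

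Slco1a4 went in opposite directions in individual tumors, at 37.3, 3.74 and 189 CPM, beside 49.6, 29.9 and 104.1 in N-LKO liver and 59.5, 29.2 and 75.6 in WT liver. Tumor 2 lay below all livers, tumor 3 above all, and tumor 1 within their range. The fitted change against WT liver was 0.48 (SE 0.97, adjusted p = 0.765), and without tumor 3 it was −1.42, still not past the test. Against N-LKO liver it was 0.32 (SE 0.96), and −1.58 without tumor 3.

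Slc22a7 was at 13.5, 12.8 and 38.4 CPM in the tumors, against 3.82, 1.04 and 1.28 in N-LKO liver, without overlap (3.39, SE 0.90, adjusted p = 0.105). WT liver replicate 2, at 20.3 CPM, lay inside the tumor range and the other WT livers far below it. Against WT liver the change was 1.37 (SE 0.81, adjusted p = 0.272), and without WT replicate 2 it was 3.15 (adjusted p = 0.0489). That was the 1 call among 14 alternatives, over which the change ran from 0.65 to 3.15 and the adjusted p up to 0.635.

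The canalicular pumps Abcc2 and Abcg2 differed less. Abcc2 read 749, 677 and 404 CPM in the tumors, all below the 813 to 829.4 of WT liver, while tumor 1 fell within the N-LKO range of 739 to 810 (−0.43, SE 0.21, adjusted p = 0.194 against WT liver and −0.36, SE 0.21 against N-LKO liver). Abcg2, the breast cancer resistance protein that exports drugs and urate, was at 112, 301 and 145 CPM in the tumors, against 98.2 to 127.98 in N-LKO and 123 to 131 in WT liver. Tumors 2 and 3 lay above all 6 livers, tumor 3 by little, and tumor 1 within their range. The change against WT liver was 0.54 (SE 0.31, adjusted p = 0.245), or −0.02 without tumor 2. Against N-LKO liver it was 0.72 (SE 0.31, adjusted p = 0.247), 0.18 without tumor 2 and 0.98 without tumor 1, where it passed the test (adjusted p = 0.0413). Abcc3, encoding MRP3, which returns conjugates to the blood, was at 328, 442 and 311 CPM in the tumors, 369, 365 and 405 in N-LKO liver and 510, 366 and 486 in WT liver, with overlapping groups (−0.33, SE 0.19 against WT liver and −0.07, SE 0.19 against N-LKO liver).

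Between tumor and N-LKO liver 5 carriers had non-overlapping groups, 3 higher (Slc22a7, Abcc4 and Abcb1a) and 2 lower (Slco1b2 and Slco2b1), where 23.1% of all genes did. Between tumor and WT liver there were also 5, with Abcb1a and Abcc4 higher and Slco1b2, Slco2b1 and Abcc2 lower, beside 34.1% of all genes. The median log2 fold change of the 9 was 0.32 against N-LKO and 0.48 against WT liver, beside 0.02 and 0.04 over all genes, with 5 of 9 values positive in each. Both medians are the values of Slco1a4. Against WT liver the median turned to −0.21 without tumor 3, −0.02 without tumor 2 and −0.33 with the replicate block, each with 4 of 9 positive. Against N-LKO liver it was 0.02 without tumor 3, −0.01 without N-LKO liver replicate 2 and −0.07 with the replicate block.

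Considered singly, each tumor was placed against the range of the 6 WD livers. Tumor 1 had 2 carriers above all 6 WD livers, 3 below and 4 within the range. Tumor 2 had 3 above, 4 below and 2 within. Tumor 3 had 5 above and 4 below. The share of all genes outside this range was not computed for single tumors. These counts are therefore not set apart from the difference between the tumors over all genes. Abcb1a and Abcc4 were above, and Slco1b2 and Slco2b1 below, in each of the 3. The plot of each library against the WT mean shows this.

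**Figure D3:**
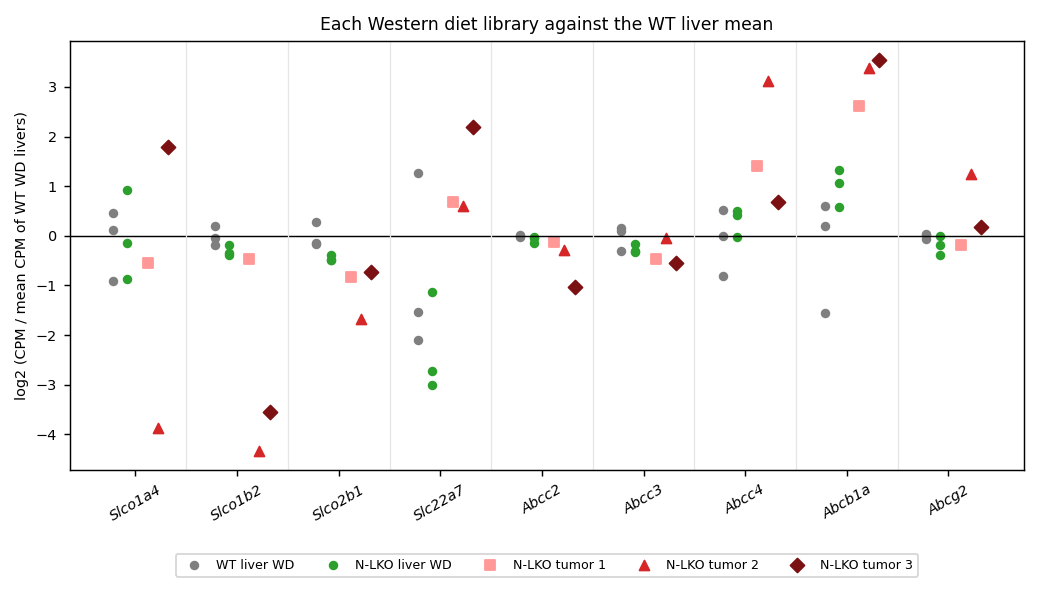
Log2 ratio of each WD library's CPM to the mean CPM of the 3 WT livers on WD, for the 9 transporters; circles are WT and N-LKO livers, and the square, triangle and diamond are tumors 1, 2 and 3. Slco1b2 lies at −0.47 in tumor 1 but −4.33 and −3.56 in tumors 2 and 3, Slco1a4 runs from −3.87 to 1.79, and Abcb1a is at 2.61 to 3.54 in all 3 tumors.

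In these bulk samples, fewer cells of a type and less RNA per cell cannot be told apart, and lists of cell type markers moved with the tumor comparison. The 8 cholangiocyte markers summed to 29.4 to 84.3 CPM in WT liver, 131 to 167 in N-LKO liver and 218 to 545 in tumor on WD. Of the 8, 2 passed the test against WT liver, Sox9 (2.67) and Spp1 (2.88), while Krt19, a defining cholangiocyte keratin, stayed near 0 in all 3 groups, at 0.496 ± 0.322 CPM in WT liver and 0.479 ± 0.633 in tumor, and 1 of the 8 was at 0 in tumor 2. Against N-LKO liver 1 of the 8 was higher, Sox9 (1.90), and the larger sum in tumor was mostly Spp1, at 122 ± 18.8 CPM in N-LKO liver and 323 ± 180 in tumor (1.40, adjusted p = 0.246). Krt19 (−0.65), Krt7 (−1.06), Epcam (−1.04), Cftr (−1.06) and Muc1 (−0.67) had negative values there, none past the test, and the median of the 8 was −0.66. The 8 macrophage markers summed to 500.5 to 735 CPM in WT liver, 461 to 539 in N-LKO liver and 179 to 458 in tumor, with 3 of 8 lower and none at 0. The 8 hepatocyte markers summed to 52697 to 66325 CPM in WT liver, 37362 to 45562 in N-LKO liver and 34293 to 60511 in tumor, with 2 of 8 lower (Ttr and Tat). In tumor against WT liver the median log2 fold change of these 8 was −0.83, beside 0.04 over all genes. An unadjusted p under 0.05 was reached there by 5 of the 8 and by 32.5% of all genes. In tumor against WT liver 2 of 7 tested lymphocyte markers were higher, 0 of 8 stellate markers passed, and 2 of 8 endothelial markers were higher with 1 lower. The part of these cell types in the transporter values was not tested.

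On HFD the macrophage sum was 129 to 189 CPM in WT and 64.9 to 133 in N-LKO liver, with 4 of 8 markers lower and none at 0. The cholangiocyte sum was 33.5 to 49.7 in WT and 70.5 to 119 in N-LKO liver, with 1 of 3 tested markers higher (Spp1, 1.55), and up to 2 of its 8 markers were at 0 in a WT liver. Hepatocyte markers summed to 75112 to 86557 in WT and 67089 to 83223 in N-LKO liver and 0 of 8 passed the test. Of the 8 endothelial markers 1 was lower. Of 7 tested stellate markers 0 passed, but all 7 had an unadjusted p under 0.05, beside 22.7% of all genes. The median log2 fold change of the 7 was 0.91, and Lrat alone was negative (−0.50). The stellate sum was 108 to 208 CPM in WT and 174 to 266 in N-LKO liver. The part of these cell types in the lower Slc22a7, Abcc2 and Slco1b2 values was not tested.

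Related uptake carriers were described by a list of 19 genes, of which 15 were tested. The tested genes were of the Slco and Slc22 families, with Slc10a1, Slc10a2, Slc29a1 and Slc16a1 from other families. On HFD 2 fell in N-LKO liver and 0 rose: Slco1a1, the male-biased OATP1A1 (191 ± 93.8 CPM in WT and 35.1 ± 27.7 in N-LKO liver, n = 4 each; −2.44, SE 0.47, adjusted p = 0.0180), and Slc22a30 (−0.51, SE 0.09). On WD 0 of 15 passed between N-LKO and WT liver, and 0 of 15 between tumor and N-LKO liver. In tumor against WT liver 3 fell and 1 rose. Slc22a23 fell by 1.43 on the log2 scale, the carnitine carrier Slc22a5 by 1.31 and Slc22a30 by 0.89, whereas the monocarboxylate carrier Slc16a1 rose (0.83, SE 0.25). The median of the 15 was −0.89 there, beside 0.04 over all genes. In the diet interaction 1 of 15 passed, Slc22a18 (−0.62).

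Related efflux pumps were a list of 15, of which 11 were tested on HFD, with 0 passing; the lowest unadjusted p belonged to the bile salt export pump Abcb11 (−0.47, SE 0.13, adjusted p = 0.0577). On WD 15 were tested and 0 passed between N-LKO and WT liver. In tumor, Slc51b, a subunit of the basolateral bile salt exporter OSTα-OSTβ, rose against N-LKO liver (3.81, SE 0.34, adjusted p = 0.00482) and against WT liver (4.41, SE 0.37, adjusted p = 0.00124), from 0.242 ± 0.0886 CPM in WT and 0.366 ± 0.105 in N-LKO liver to 5.22 ± 0.977 in tumor (n = 3 each). Against WT liver Abcb1b and Abcc5 (1.37) also rose, and Abcc6 (−1.05) and the cation extruder Slc47a1 (−0.66) fell, making 3 higher and 2 lower of 15. The median was 0.27, beside 0.04 over all genes. In the interaction 1 of 14 passed, Abcc10 (1.03).

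**Figure D4:**
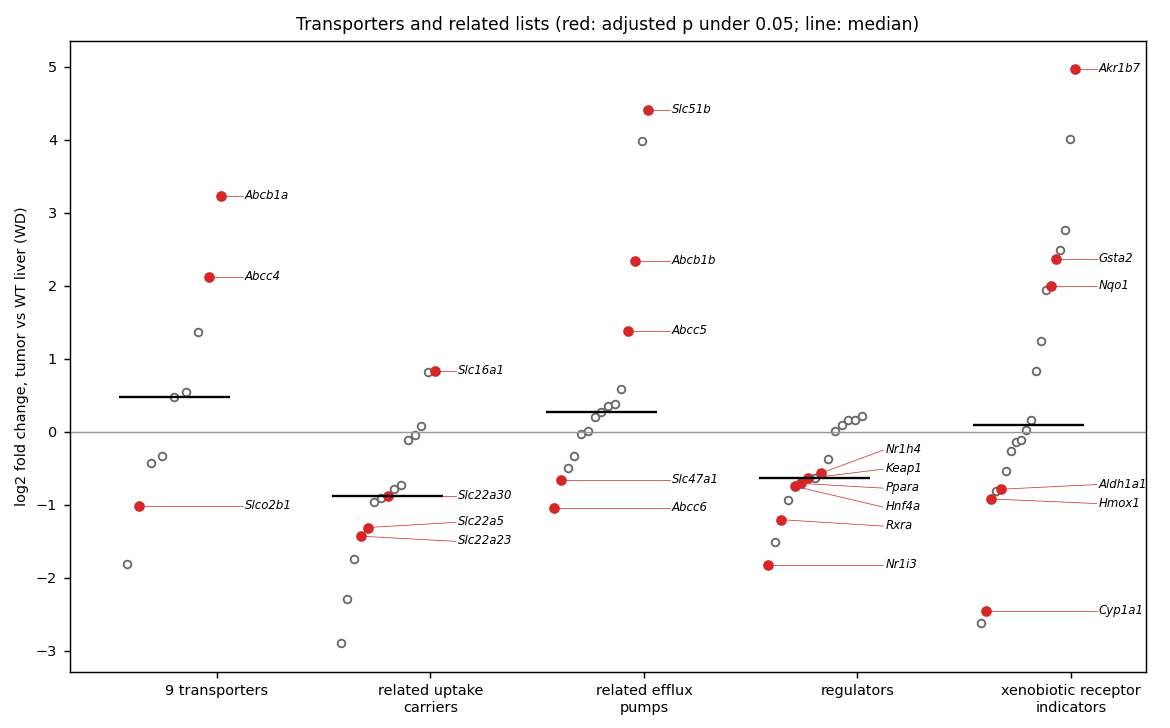
Log2 fold change of N-LKO tumor against WT liver on WD (y axis) for the 9 transporters and 4 related lists (x axis); each point is a gene, ordered by its value within a list, red points have an adjusted p under 0.05 and lines are medians over tested genes. Medians are 0.48 for the transporters (negative without tumor 2 or tumor 3), −0.89 for uptake carriers, 0.27 for efflux pumps, −0.64 for regulators and 0.09 for indicator genes.

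A list of 15 transcription factors and receptors known to act on these carriers was tested in full. On HFD 0 of 15 passed edgeR's test in N-LKO liver, and 3 had an unadjusted p under 0.05, beside 22.7% of all genes. These were Ppara (−0.44, SE 0.13, adjusted p = 0.0799), Onecut1 (−1.76, SE 0.57, adjusted p = 0.0967) and Nr5a2 (−0.24, SE 0.10, adjusted p = 0.165). On WD 0 passed between N-LKO and WT liver, but 7 had an unadjusted p under 0.05 in edgeR, beside 12.4% of all genes. The lowest p-values belonged to Rxra (−0.70, SE 0.19), Hnf4a (−0.62, SE 0.18) and Cebpa (−0.71, SE 0.22), each at an adjusted p of 0.353. Of the 7, Nfe2l2 was higher (0.50, SE 0.19). Between tumor and N-LKO liver 0 passed and 2 had an unadjusted p under 0.05, beside 18.3% of all genes. In the interaction 0 passed and 4 had an unadjusted p under 0.05, beside 20% of all genes. In tumor against WT liver 6 of 15 fell and 0 rose. The receptor CAR (Nr1i3), which responds to drugs of the phenobarbital type, went from 192 ± 42.3 CPM in WT liver to 54.3 ± 29.5 in tumor (−1.82, SE 0.33, adjusted p = 0.0116), and its partner Rxra fell by 1.20. Hnf4a fell by 0.75, Ppara by 0.71, the NRF2 inhibitor Keap1 by 0.64 and Nr1h4 by 0.56 on the log2 scale.

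Indicator genes of the xenobiotic receptors were a list of 20. On HFD 4 of 16 tested rose in N-LKO liver and 0 fell: the glutathione S-transferases Gsta1 (1.96, SE 0.35), Gsta2 (1.40, SE 0.30) and Gstm1 (0.71, SE 0.15), and sulfiredoxin Srxn1 (0.40, SE 0.09). On WD 0 of 20 passed between N-LKO and WT liver. Against N-LKO liver, tumor had higher Akr1b7 (4.15) and Gsta2 (2.46). Against WT liver 3 of 20 rose, Akr1b7 (4.96, SE 0.58), Gsta2 (2.37, SE 0.38) and the quinone reductase Nqo1 (2.00, SE 0.38), and 3 fell, the AhR target Cyp1a1 (−2.46, SE 0.42), heme oxygenase Hmox1 (−0.92) and Aldh1a1 (−0.79). Cyp1a1 rests on few counts, at 1.74 ± 0.139 CPM in WT liver and 0.314 ± 0.137 in tumor, with 4 to 9 counts a tumor library. In the interaction 0 of 18 passed. Members of the Gsta and Gstm families share sequence, and their counts may be divided between them.

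The genes whose pattern was most like that of a carrier were found by Pearson correlation of log2 CPM over 17 libraries, each table centred on its own mean, among 9194 genes. Abcb1a varied most like Rrm1, a ribonucleotide reductase subunit (r = 0.94), Myadm (0.92) and Exosc8 (0.91). Slco2b1 was nearest to Clmn (0.98), the sulfate carrier Slc26a1 (0.97) and Slc25a38 (0.97). Abcc4 was nearest to Arrb1 (0.95), Frk (0.92) and Cybb (0.91), and Slc22a7 to Ibtk (0.91), Rab7 (0.87) and the glutathione synthesis subunit Gclm (0.86). The points share their libraries, and the 3 tumors hold much of the variation, so these values are descriptions.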

How the data were processed

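Total RNA of 8 HFD livers and 9 WD livers and tumors was sequenced, and the authors deposited estimated counts of each gene, made with an expectation-maximization step in Partek, unscaled and not pooled. The study's methods give ribosomal RNA depletion and TopHat2, whereas the submitters' processing notes list STAR and the build mm9. The coordinates in the files match GRCm38, where 97.2% of HFD and 96.8% of WD genes have the annotated start of GENCODE M21, so that build is used here. The labels name a small RNA library kit. What these differences do to the values is not known. Of the values, 69.8% (HFD) and 66.6% (WD) were whole numbers, and the rest hold reads divided between features.

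Estimated counts were rounded to whole numbers. Genes kept by filterByExpr were tested in edgeR 4.0.16 under R 4.3.3 (TMM scaling, quasi-likelihood F test, Benjamini-Hochberg adjustment over all genes tested). Every p-value in the text without another name is from this test. The 8 HFD libraries were fitted alone, the 9 WD libraries together, and the interaction over 14 livers with the genes in both tables. Standard errors are approximate, being the size of a log2 fold change over the root of its F statistic. Levels are CPM on TMM-scaled library totals, and levels compared between genes are the same CPM per kilobase of exon. A gene was called at an adjusted p under 0.05. The steps were tested on simulated data.

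The alternatives were DESeq2 1.42.0 size factors, no filter, the DESeq2 Wald test, the replicate number as a block, an offset for length and GC content, a fit of only the 2 groups compared, and leaving out each library. The sum of Abcb1a and Abcb1b was added later. All 9 carriers are named in every comparison. Genes of the 4 related lists are named where called, at most the 6 with the largest change, or else up to 3 with the lowest p. For the 4 carriers with the lowest p, the 3 genes of most similar pattern are named, among genes at a mean of 5 CPM or more, with a prior count of 2. The carriers, the lists and the cell type markers were chosen with earlier results of these data known. The values of 2 genes of the related lists are not reported here. There were 0 columns without a sample.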

Additional observations from a re-analysis of the deposited data

Results flagged for a closer look

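In groups of 4 libraries, the gap of the highest or lowest library to its neighbour was compared with the group's range (Dixon's ratio, critical value 0.829). Over the 9 carriers and both HFD groups, 18 groups were examined and 2 were marked; chance marks about 1 in 20. Slco1b2 stood at 878.637 CPM in N-LKO liver replicate 2 on HFD, with the other 3 N-LKO livers at 1342 to 1393 (ratio 0.9004). Slco2b1 stood at 90.7337 CPM in WT liver replicate 3 on HFD, with the other 3 WT livers at 113 to 117 (ratio 0.850). The WD groups hold 3 libraries each and were not examined in this way.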

How the results depend on the processing

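Of 692 single log2 fold changes of the 9 carriers recomputed under the alternatives, 666 stayed on their side of the threshold, 11 lost a call and 15 gained one, and 0 called values changed sign; 36 uncalled values did. The DESeq2 Wald test gave no adjusted p for Slco1b2 and Slc22a7 in the 3 WD comparisons, which are left out of these counts. The 11 lost calls were Abcc4 (9) and Slco2b1 (2), in tumor against WT liver. The number of carriers called moved from 0 to 2 with the DESeq2 Wald test on HFD and to 2 in tumor against N-LKO liver, and with a fit of only the 2 groups compared from 0 to 1 in tumor against N-LKO liver and from 3 to 1 in tumor against WT liver. Leaving out single libraries gave 0 to 1 carriers on HFD, 0 to 4 in tumor against N-LKO liver (4 without tumor 1) and 2 to 4 in tumor against WT liver. In N-LKO against WT liver on WD and in the interaction, the number of carriers called was 0 in each alternative.

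Over all genes, the DESeq2 Wald test called 999 genes on HFD (652 with edgeR), 99 in N-LKO against WT liver on WD (0), 1021 in tumor against N-LKO liver (89) and 923 in the interaction (257). The length and GC offset gave 287 on HFD and 54 in the interaction. A fit of only the 2 groups compared gave 6, 29 and 705 genes in the 3 WD comparisons in that order, the last beside 2653. Leaving out single libraries gave 179 to 597 genes on HFD, 0 to 1, 3 to 2193 and 569 to 3819 in the 3 WD comparisons, and 22 to 330 in the interaction. The cause of these shifts was not tested.

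Groups share replicate numbers, but same-numbered libraries did not deviate together (correlations of deviations from −0.124 to 0.107), and not every library correlated best with its own number. With the replicate block, 1 carrier was called on HFD (Slc22a7, −1.01, adjusted p = 0.0362), and in tumor against WT liver 2 were, Abcc4 being at an adjusted p of 0.0845. Over all genes the replicate block gave 494 on HFD, 36 in tumor against N-LKO liver, 1860 in tumor against WT liver and 0 in the interaction. Abcc4 and Abcb1a in HFD livers rest on few counts, 9 to 32 and 9 to 73 a library, and the size of difference detectable at this depth was not measured.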
